A study of Mus musculus with 14 samples.

Results

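Neonatal mouse cortex was compared with whole brain of embryos at 15.5 days post coitum (dpc), using 8 of the 14 arrays of the series. The arrays were chosen by the tissue and age given in their labels. Of the 8, 4 held RNA from neonatal cortex, which the labels also call forebrain, and 4 held RNA from 15.5 dpc brain. All mice were T9H/+ heterozygotes for a translocation between chromosomes 7 and 15. Each tissue had 2 MatDp7 arrays, where the duplicated proximal segment was maternal for chromosome 7 and paternal for chromosome 15, and 2 PatDp7 arrays with the opposite origins. No array without a duplication was used here, so both sides of the comparison carried them in equal number. The labels give no postnatal day, no strain and no number of animals per sample, and the word biological before the replicate number is the only statement on their origin. The p-values therefore measure the spread between arrays of the same group. Part of that spread was shared: deviations of same-numbered neonatal arrays correlated at 0.710 to 0.816 between groups. The reported fit treats them as independent. The remaining 6 arrays, 4 of neonatal cerebellum and 2 of 13.5 dpc brain, entered the fit and served as points of reference.

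Between late gestation and birth the cortex turns from a tissue of dividing progenitors into one of young neurons. Progenitors in the zone lining the ventricles leave the cell cycle, and their daughters migrate outward, form layers, extend axons and begin to build synapses, while the remaining progenitors start to make astrocytes. Whole embryonic brain also holds choroid plexus, and it holds midbrain and hindbrain, which a cortical dissection leaves out. In mice the first red cells come from the yolk sac and carry embryonic globins, and cells from the liver with adult globins replace them before birth. In these samples age and brain part differed together and cannot be told apart, and in bulk RNA fewer cells of a type cannot be told apart from less RNA per cell.

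Every value below is a MAS5 signal intensity on a linear scale unless it is named a log2 difference. The 4 values of a tissue are given in the order MatDp7 replicate 1, MatDp7 replicate 2, PatDp7 replicate 1 and PatDp7 replicate 2. Log2 differences are neonatal cortex minus 15.5 dpc brain, each with its standard error, from a limma fit of log2(intensity + 52.0), a scale that understates changes of dim transcripts. A probe set was called when its limma adjusted p lay under 0.05 and it had the same sign with cortex replicate 1 arrays alone and with cortex replicate 2 arrays alone. Levels of different genes cannot be ranked against each other on these arrays.

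Before any comparison, some arrays stood apart. Cortex replicate 1 arrays reached maximum intensities of 44953 and 61172, against 19321 and 20569 on cortex replicate 2 arrays and 18228 to 25858 on the 15.5 dpc arrays. Xist, which silences an X chromosome in females, read 257 and 437 on cortex replicate 1 arrays and 3956 and 5108 on cortex replicate 2 arrays, and the 15.5 dpc arrays divided the same way (217 and 198 in replicate 1, 5323 and 4329 in replicate 2). Each replicate number therefore held 1 array of each duplication, and a like level of Xist, on both sides. Ndn, an imprinted chromosome 7 gene expressed from the paternal copy, checked the duplication labels: in cortex it read 9067 and 13669 in PatDp7 against 36.4 and 151 in MatDp7, and in 15.5 dpc brain 12614 and 12194 in PatDp7 against 83.9 and 68.0 in MatDp7. For the tissue label, Neurod6, a transcription factor gene of young cortical neurons, read 1183 to 1669 in cortex and averaged 181 in cerebellum. En2, a midbrain and hindbrain gene and itself a call of this comparison, read 18.0 to 89.1 in cortex against 210 to 258 in 15.5 dpc brain. Other markers were mixed between these tissues. Means in cortex and 15.5 dpc brain were similar for the cortical genes Neurod6 (1363 and 1313) and Tbr1 (271 and 252), but not for Mef2c (3841 and 1397) or Bcl11b (8384 and 1183). Of genes of other brain parts, Gata2 (443 and 415) and Hoxb4 (80.2 and 84.9) were similar, and Irx3 (127 and 633) was lower in cortex. No depth applies to array intensities, and the number of arrays limits the precision.

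Of 13576 probe sets tested, 764 were called (5.63%), 254 higher in cortex (1.87%) and 510 lower (3.76%), and 3630 had an unadjusted p under 0.05 (26.7%). Another scaling, to equal array medians, moved the median log2 difference of all probe sets to -0.11 and gave 125 higher among 708 calls, so 17.7% were higher against 33.2% in the reported fit. All 4 cortex arrays lay on 1 side of all 4 arrays of 15.5 dpc brain for 24.4% of all probe sets tested. Called sizes ran from 0.51 to 2.96 among those higher and from 0.53 to 4.73 among those lower. Taken as 1 probe set per gene, 461 of 8156 genes were called (5.65%), 139 higher (1.7%) and 322 lower (3.95%). Of the 174 called genes with several tested probe sets, 22 (12.6%) had probe sets that differed in sign.

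Cortex replicates were then set against all 4 arrays of 15.5 dpc brain one number at a time, in fits that share those 4 arrays. With replicate 1 alone 6101 probe sets passed (44.9%), with replicate 2 alone 2589 (19.1%), and 1547 passed both with the same sign (11.4%). The 254 called higher, for which the call required 1 sign in both replicates, had a median log2 difference of 0.88 in replicate 1 and 0.89 in replicate 2, and the 510 called lower had medians of -0.9995 in replicate 1 and -0.85 in replicate 2. Bcl11b, a layer V transcription factor gene, was among those the replicates divided: it read 15078, 2865, 12780 and 2814 in cortex, against 1157, 582, 1685 and 1309 in 15.5 dpc brain. Both replicate 1 values lay far above both replicate 2 values, the groups did not overlap, and the difference of 2.45 ± 0.853 did not pass (limma adjusted p = 0.116).

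**Figure D1:**
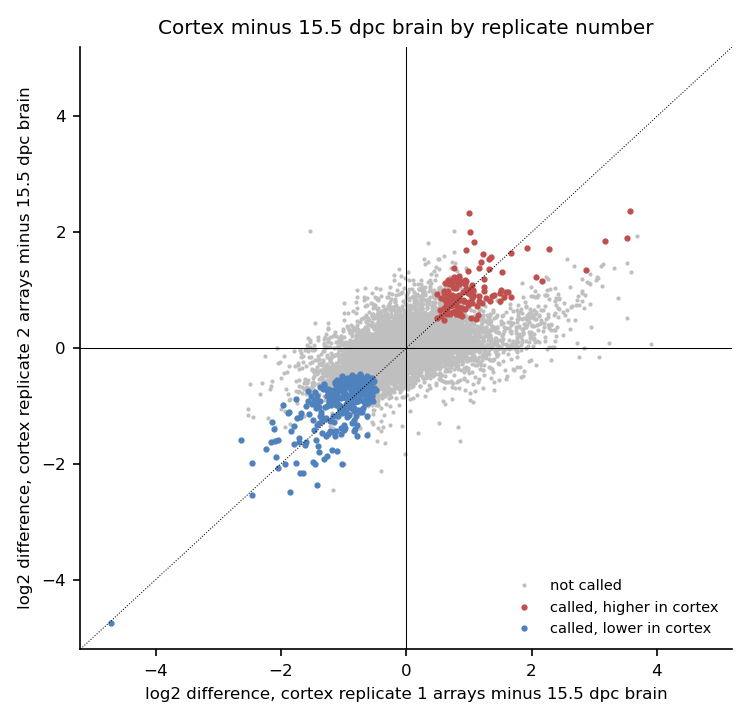
Log2 difference of neonatal cortex minus 15.5 dpc brain for the genes tested (1 probe set per gene), with cortex replicate 1 arrays on the horizontal axis and cortex replicate 2 arrays on the vertical axis. Both axes use the same 4 arrays of 15.5 dpc brain, the dotted line marks equal sizes, red points were called higher in cortex, blue points were called lower and grey points were not called.

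The number of calls rested on single arrays. Without cortex MatDp7 replicate 1, MatDp7 replicate 2, PatDp7 replicate 1 or PatDp7 replicate 2 the counts were 101, 184, 191 and 1076. When 15.5 dpc MatDp7 replicate 1 was left out 5 probe sets passed, namely both Hbb-y probe sets of largest size, H2az2, Kcne2 and Pdxdc1. The omission of 15.5 dpc MatDp7 replicate 2 gave 234, that of PatDp7 replicate 1 gave 82, and that of PatDp7 replicate 2 gave 0, with 2603 at an unadjusted p under 0.05. Every call named here was therefore lost in at least 1 of these 8 fits. None of 107 called genes followed through those fits changed sign. Being called required 1 sign in both cortex replicates, so this adds no separate support. Within MatDp7, 2 arrays against 2, 0 probe sets passed and 1437 had an unadjusted p under 0.05 (10.6%). In PatDp7 4 passed (0.0295%): both of those Hbb-y probe sets, H2az2 and Nup50. Pdxdc1 and Nup50 are named only for these small counts, after their values were seen. The difference between PatDp7 and MatDp7 in this comparison passed for 0 probe sets, with 117 at an unadjusted p under 0.05 (0.862%).

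Genes of DNA replication were lower in cortex. Of 29 tested, 13 were called lower and 0 higher, against 3.95% of all genes called lower, and 15 passed with each replicate alone in the lower direction, against 7.49% of all genes. Their median log2 difference was -0.74, against -0.0038 for all genes tested. These proteins load and run the replication fork and supply its nucleotides, and they are made mainly in cells that are about to divide.

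The MCM proteins form the ring-shaped helicase that opens DNA ahead of the fork, and all 6 of its subunit genes tested were called. Mcm3 read 134, 139, 161 and 119 in cortex, against 561, 487, 386 and 541 in 15.5 dpc brain. All 4 cortex values were below all 4 values of 15.5 dpc brain, and Mcm3 fell by 1.51 ± 0.171 (limma adjusted p = 0.00948). Mcm7 read 1523, 1481, 1036 and 1155 in cortex, against 2911, 2564, 2376 and 2824 in 15.5 dpc brain. Again the groups were apart, and Mcm7 fell by 1.02 ± 0.134 (limma adjusted p = 0.0105). Mcm2 read 236, 308, 267 and 423 in cortex, against 1180, 959, 533 and 1595 in 15.5 dpc brain, where PatDp7 replicate 1 was the lowest. The fall of Mcm2, 1.56 ± 0.320, was the largest in the list (limma adjusted p = 0.0305), and Mcm4, Mcm5 and Mcm6 differed by -1.04, -1.14 and -1.07.

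Beyond the helicase, Gins1, a subunit of the complex that joins it to the polymerase, read 160, 100, 125 and 135 in cortex, against 335, 283, 322 and 350 in 15.5 dpc brain. It was lower on every cortex array, by a log2 difference of -1.05 ± 0.159 (limma adjusted p = 0.0149). Rrm1 and Rrm2, the subunits of ribonucleotide reductase, differed by -0.74 and -1.03, and Tk1, the thymidine kinase of dividing cells, by -1.44. Pcna, the sliding clamp of the polymerases, read 2322, 2683, 1477 and 2219 in cortex, against 4936, 3400, 4281 and 4304 in 15.5 dpc brain, a difference of -0.96 ± 0.188 (limma adjusted p = 0.0269). Rpa1, which covers single-stranded DNA, and Uhrf1, which helps to copy methylation marks, were also called, at -0.86 and -1.11. Among the 16 members that did not pass, values ran down to -1.15 for Fen1 and up to 0.13 for Dnmt1, the maintenance methyltransferase gene. A dimmer Fen1 probe set was called, at -0.74 ± 0.128 (limma adjusted p = 0.0207).

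Mitosis and spindle genes gave the same number of calls. Of 34 tested, 13 were called lower (38.2%, against 3.95% of all genes) and 0 higher, with a median of -0.71 and values from -2.11 to -0.18. With each replicate alone 16 passed (47.1%, against 7.49% of all genes). Cdk1, the kinase that drives entry into mitosis, read 218, 483, 99.6 and 271 in cortex, against 1315, 983, 1095 and 1473 in 15.5 dpc brain. Every cortex array was below every array of 15.5 dpc brain, and Cdk1 fell by 2.11 ± 0.420 (limma adjusted p = 0.0284), with differences of -2.63 for replicate 1 alone and -1.59 for replicate 2 alone. Ccnb2, its cyclin partner, read 173, 211, 189 and 88.4 in cortex, against 486, 438, 433 and 532 in 15.5 dpc brain. These groups were also apart, with a difference of -1.31 ± 0.187 (limma adjusted p = 0.0134).

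Prc1, which bundles microtubules at the midzone, had the smallest p of the list. It read 320, 376, 231 and 227 in cortex, against 923, 665, 690 and 1041 in 15.5 dpc brain, without overlap, and fell by 1.37 ± 0.177 (limma adjusted p = 0.00985). Bub1b, a kinase of the spindle checkpoint, read 108, 38.2, 116 and 27.8 in cortex, against 348, 307, 344 and 602 in 15.5 dpc brain. Both replicate 2 values in cortex lay under the added constant, and the difference was -1.90 ± 0.303 (limma adjusted p = 0.0176). Birc5, the survivin subunit of the chromosomal passenger complex, read 271, 221, 37.6 and 171 in cortex, against 782, 546, 710 and 817 in 15.5 dpc brain, a difference of -1.89 ± 0.287 (limma adjusted p = 0.0149).

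The other called members were Ube2c of the anaphase-promoting pathway (-1.56), the centromeric histone Cenpa (-1.76), the condensin subunits Smc4 (-1.28) and Smc2 (-0.88), Top2a (-1.17), the midbody motor Kif23 (-1.05), Cdc20 (-0.90) and Nuf2 (-0.66). For Smc4 a second probe set differed by 0.14. Of the G1 cyclins, kinases and inhibitors 5 of 17 were called lower (29.4%, against 3.95% of all genes) and 0 higher. Cdk4, the kinase of early G1, read 1475, 1643, 1068 and 1301 in cortex, against 3992, 2880, 3633 and 2909 in 15.5 dpc brain, all lower, and fell by 1.26 ± 0.176 (limma adjusted p = 0.0124). Ccnd3, a partner of Cdk4, the pocket protein gene Rbl1 and the inhibitor Cdkn1c differed by -0.99, -0.91 and -1.51. Ccnd1, another partner, was called at -0.60, and its other probe sets differed by 0.0036 and 0.52.

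Promoters of these genes are shown because 2 short elements are known to switch them with the cell cycle: E2F sites, typical of replication genes, and the CHR element, typical of mitotic genes. Windows of 300 bases (250 before and 50 after the annotated start, GRCm38.p6, RefSeq) are given 5′ to 3′ on the gene's strand, for 4 called genes whose windows hold 2 runs of the letters each. In the first pair capitals mark the E2F letters searched (TTTCCCGC, TTTCGCGC, TTTGCCGC or TTTGGCGC on either strand), and in the second pair they mark the CHR letters TTTGAA on either strand.
Mcm3, minus strand, chr1:20820263-20820562: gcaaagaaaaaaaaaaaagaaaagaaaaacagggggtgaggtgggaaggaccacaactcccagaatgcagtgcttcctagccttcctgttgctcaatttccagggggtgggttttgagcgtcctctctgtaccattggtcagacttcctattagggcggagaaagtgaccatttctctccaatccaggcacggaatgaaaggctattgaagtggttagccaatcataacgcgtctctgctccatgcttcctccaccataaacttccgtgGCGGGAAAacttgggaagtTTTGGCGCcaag
Mcm7, minus strand, chr5:138171834-138172133: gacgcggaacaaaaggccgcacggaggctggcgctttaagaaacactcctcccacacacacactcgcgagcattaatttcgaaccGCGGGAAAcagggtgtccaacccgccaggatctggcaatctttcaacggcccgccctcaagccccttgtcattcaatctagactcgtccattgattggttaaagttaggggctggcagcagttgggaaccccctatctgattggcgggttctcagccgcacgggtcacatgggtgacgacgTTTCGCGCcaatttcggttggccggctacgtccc
Ccnb2, minus strand, chr9:70421505-70421804: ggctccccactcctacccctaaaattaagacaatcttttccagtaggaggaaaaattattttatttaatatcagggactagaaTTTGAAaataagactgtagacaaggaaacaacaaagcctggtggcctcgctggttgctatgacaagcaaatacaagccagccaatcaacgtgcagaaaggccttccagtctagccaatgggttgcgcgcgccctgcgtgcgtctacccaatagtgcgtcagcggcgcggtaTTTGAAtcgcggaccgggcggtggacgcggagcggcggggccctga
Cdk1, minus strand, chr10:69352863-69353162: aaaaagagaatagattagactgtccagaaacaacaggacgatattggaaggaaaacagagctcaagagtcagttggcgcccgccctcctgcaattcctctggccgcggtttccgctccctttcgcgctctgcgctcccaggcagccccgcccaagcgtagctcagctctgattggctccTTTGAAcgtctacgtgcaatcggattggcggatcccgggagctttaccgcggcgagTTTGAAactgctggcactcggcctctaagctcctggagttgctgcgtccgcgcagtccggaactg

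The Cdk1 window also holds 1 run of E2F letters, left in lower case, and a second window listed for Mcm7 holds none. E2F letters were found for 5 of the 11 called replication genes with a window (45.5%), for 5 of the 15 replication genes not called (33.3%) and for 4.91% of all genes tested that have a window. The CHR letters were found for 10 of the 12 called mitosis genes with a window (83.3%), for 13 of the 17 not called (76.5%) and for 14.01% of all genes tested. CCAAT, a box often found beside both, was in the windows of 10 of those 11 replication genes (90.9%) and 10 of those 12 mitosis genes (83.3%), against 7 of the 15 (46.7%) and 12 of the 17 (70.6%) not called and 43.1% of all genes tested. Over all 32851 windows of the table the shares were 2.26% for E2F letters, 17.9% for CHR letters and 37.4% for CCAAT. Such a match describes letters in a window and is not a measured binding site.

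Of 29 histone, HMG and chromatin assembly genes 7 were called lower (24.1%) and 0 higher, against 3.95% of all genes called lower, with a median of -0.44, and 22 did not pass. H2az2, a variant of histone H2A, read 1238, 1306, 789 and 892 in cortex, against 4152, 3232, 3366 and 3471 in 15.5 dpc brain, with every cortex array far below, and fell by 1.73 ± 0.163 (limma adjusted p = 0.00948). The call was lost in 1 of the 8 fits without an array. Asf1b and Nasp, which carry histones to new DNA, differed by -1.04 and -0.87, the deacetylase Hdac1 by -1.09, and Ezh2, the Polycomb methyltransferase, by -0.75.

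Of 19 radial glia and neural progenitor genes 2 were called, both lower (10.5%, against 3.95% of all genes): Vim, the intermediate filament of radial glia, and Prom1, a protein of their apical membrane. Vim read 5286, 4423, 3034 and 3077 in cortex, against 7733, 6162, 6860 and 9428 in 15.5 dpc brain, a difference of -0.95 ± 0.156 (limma adjusted p = 0.0193), and Prom1 differed by -1.07. The median of the list was -0.051, near that of all genes. Pax6, a transcription factor of cortical progenitors, read 314, 318, 370 and 256 in cortex, against 535, 489, 511 and 548 in 15.5 dpc brain, and did not pass (-0.65 ± 0.202, limma adjusted p = 0.0878). Neurog2, the factor that commits progenitors to glutamatergic neurons, read 183, 116, 181 and 93.5 in cortex, against 593, 363, 314 and 763 in 15.5 dpc brain. All cortex values were lower, and Neurog2 fell by 1.47 ± 0.299 (limma adjusted p = 0.0299). With Mfng (-0.92), a modifier of Notch, and Igfbpl1 (-0.72), it made 3 calls lower among 15 genes of intermediate progenitors and newborn neurons (20%, against the same 3.95%).

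Growth genes of the embryo, several of them imprinted, had 3 calls among 19 tested, all lower (15.8%, against 3.95% of all genes). Mest, an imprinted gene of chromosome 6 expressed from the paternal copy, read 1135, 913, 975 and 676 in cortex, against 2587, 2793, 2951 and 3081 in 15.5 dpc brain. It was lower on every cortex array and fell by 1.59 ± 0.167 (limma adjusted p = 0.00948). Grb10, an adaptor that restrains insulin and growth factor signals, read 1139, 1524, 978 and 1316 in cortex, against 2984, 2770, 3297 and 3753 in 15.5 dpc brain, a difference of -1.34 ± 0.206 (limma adjusted p = 0.0154). Cdkn1c read 2446, 1180, 1332 and 670 in cortex, against 3616, 3236, 3760 and 4379 in 15.5 dpc brain, and differed by -1.02 with replicate 1 alone and -2.002 with replicate 2 alone. Dlk1, a Notch-like growth regulator, read 594, 1168, 413 and 409 in cortex, against 1394, 2728, 2012 and 3006 in 15.5 dpc brain, without overlap, and did not pass (-1.81 ± 0.499, limma adjusted p = 0.0659).

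Among genes lower in cortex the largest differences were those of embryonic globins. Hbb-y, an embryonic beta-like globin, read 1.93, 1.38, 4.03 and 1.88 in cortex, against 445, 1688, 1192 and 3975 in 15.5 dpc brain. Cortex values were near the bottom of the scale on every array, and 15.5 dpc values varied among themselves, with MatDp7 replicate 1 the lowest and PatDp7 replicate 2 the highest. The difference was -4.73 ± 0.426 (limma adjusted p = 0.00948), a size set by the added constant because the cortex mean of 2.30 lay under it. Its 3 probe sets differed by -4.73 to -3.16, and the one described may also bind near-identical globin transcripts. Hba-x, the embryonic alpha-like globin, read 37.1, 68.0, 91.0 and 43.3 in cortex, against 210, 645, 444 and 1593 in 15.5 dpc brain, and fell by 2.50 ± 0.433 (limma adjusted p = 0.0207).

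Alas2, the first enzyme of heme synthesis in red cells, read 546, 229, 403 and 349 in cortex, against 1639, 1855, 1703 and 2151 in 15.5 dpc brain. The groups were well apart and Alas2 fell by 2.17 ± 0.313 (limma adjusted p = 0.0137). Slc25a37, mitoferrin, which brings iron into the mitochondria of red cell precursors, read 386, 160, 140 and 146 in cortex, against 836, 972, 963 and 698 in 15.5 dpc brain, a difference of -1.90 ± 0.288 (limma adjusted p = 0.0149). Of 13 blood and erythroid genes tested, a list that does not hold Slc25a37, 4 were called lower (30.8%, against 3.95% of all genes) and 0 higher: Hbb-y, Hba-x, Alas2 and Bpgm (-1.01), which makes the metabolite that loosens oxygen from hemoglobin. Fech, the last enzyme of heme synthesis, and Tfrc, the receptor for iron uptake, differed by -0.43 and 0.035 and did not pass. Other Fech probe sets differed by -1.04 (called, limma adjusted p = 0.0149) and -0.0069 (not called), and another of Tfrc by 0.81 (not called). Hbb-b2, an adult beta globin, read 227, 256, 205 and 331 in cortex, against 269, 196, 176 and 253 in 15.5 dpc brain, overlapping. The difference for this probe set was 0.15 ± 0.248 (not called). Another Hbb-b2 probe set was called lower, at -1.70 ± 0.409 (limma adjusted p = 0.0468), so its probe sets disagree. Summed over the 20 genes of the list on the array, tested or not, intensity was 5474 to 6292 in cortex and 8936 to 15383 in 15.5 dpc brain.

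Choroid plexus, the tissue that secretes cerebrospinal fluid, is held by whole brain. Kcne2, a potassium channel subunit of its epithelium, read 121, 105, 78.2 and 87.8 in cortex, against 795, 396, 529 and 627 in 15.5 dpc brain. Each cortex array was far below, and Kcne2 fell by 2.06 ± 0.225 (limma adjusted p = 0.00948), a call lost in 1 of the 8 fits without an array. Calml4 and the folate receptor gene Folr1 made up the 3 calls among 10 tested (30%, against 3.95% of all genes called lower). They differed by -1.55 and -0.91, and the list median was -1.08. Ttr, transthyretin, the most abundant secreted product of this epithelium, read 14903, 13333, 10570 and 15653 in cortex, against 17222, 13457, 14033 and 17395 in 15.5 dpc brain. Those groups overlapped and Ttr did not pass (-0.20 ± 0.180, limma adjusted p = 0.488). Summed intensity of the list was 12845 to 20063 in cortex and 20981 to 27146 in 15.5 dpc brain.

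Transcription factors that pattern the midbrain, hindbrain and spinal cord had 8 calls lower (28.6%, against 3.95% of all genes) and 0 higher among 28 tested. Their median was -0.94. Mab21l1, a regulator needed for eye development, read 86.3, 262, 162 and 134 in cortex, against 691, 1068, 560 and 802 in 15.5 dpc brain, and fell by 1.99 ± 0.263 (limma adjusted p = 0.0106). Irx3, an Iroquois factor, read 124, 106, 189 and 90.3 in cortex, against 626, 678, 397 and 830 in 15.5 dpc brain. The groups were apart in both, and Irx3 fell by 1.92 ± 0.274 (limma adjusted p = 0.0133).

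Meis1, a Hox cofactor, read 22.3, 97.7, 16.2 and 12.1 in cortex, against 255, 341, 210 and 184 in 15.5 dpc brain. MatDp7 replicate 2 was the highest of the cortex arrays, and the difference of -1.82 ± 0.273 (limma adjusted p = 0.0149) depends on the added constant, as does that of En2 at -1.62 ± 0.274 (limma adjusted p = 0.0199). Tal1 (-1.65), Barhl1 (-1.41), Irx2 (-1.33) and Foxa1 (-0.96) were the other calls. Summed intensity of the list was 6511 to 15283 in cortex and 11435 to 16555 in 15.5 dpc brain, so these sums overlapped although 8 members were called. For the 12 telencephalic identity genes, Mef2c alone was called, higher in cortex (8.33%, against 1.7% of all genes).

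Meningeal, mesenchymal and matrix genes had 3 calls lower among 30 (10%, against 3.95% of all genes), with a median of -0.43. Lum, a proteoglycan of fibrous sheets such as the meninges, read 263, 227, 171 and 174 in cortex, against 786, 1048, 906 and 1141 in 15.5 dpc brain. It was lower on all cortex arrays and fell by 1.97 ± 0.235 (limma adjusted p = 0.00948). Col3a1, a fibrillar collagen, differed by -1.36, and Col1a1 read 2214, 715, 1415 and 293 in cortex, against 1174, 1420, 1034 and 1271 in 15.5 dpc brain, with both replicate 1 values of cortex above those of replicate 2. Summed intensity was 30542 to 37739 in cortex and 38113 to 47914 in 15.5 dpc brain. Endothelial and pericyte genes had 1 call lower among 23, the pericyte gene Cd248 (-1.87), a share of 4.35% near the 3.95% of all genes, and summed to 13182 to 17032 in cortex and 17476 to 22026 in 15.5 dpc brain. Microglia and macrophage genes had 0 calls by limma among 14, with 1 at an unadjusted p under 0.05, and their sums overlapped, at 6002 to 7075 in cortex and 5937 to 7637 in 15.5 dpc brain. The part of these other cell types in the remaining results was not tested.

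**Figure D2:**
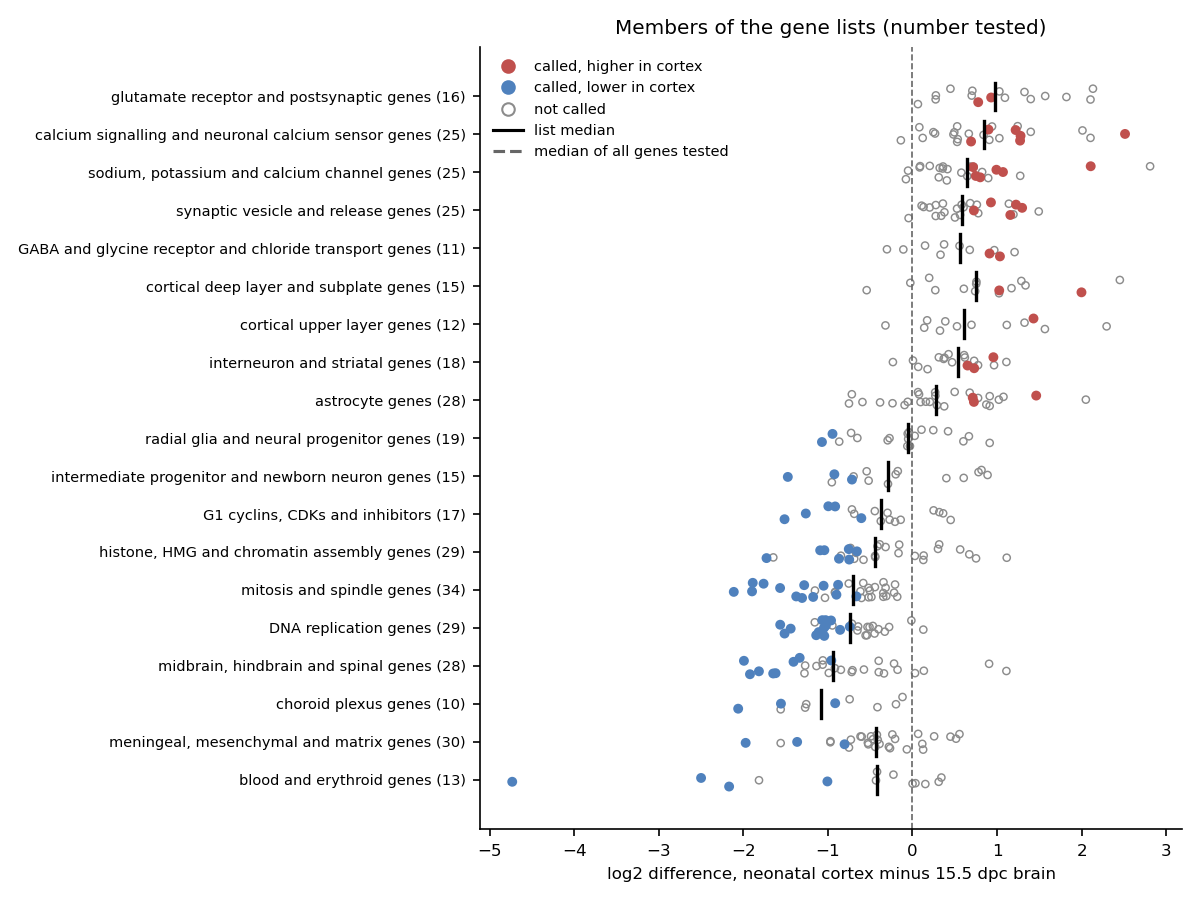
Log2 difference of neonatal cortex minus 15.5 dpc brain for the tested members of 19 gene lists, each point 1 gene, with the number tested in brackets. Red points were called higher in cortex, blue points lower, open points were not called, the black bar is the list median and the dashed line the median of all genes tested, -0.0038.

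In the lists of synaptic, receptor, channel and calcium signalling genes every call was higher in cortex. Of 16 glutamate receptor and postsynaptic genes 2 were called, against 1.7% of all genes called higher, and 8 passed with each replicate alone, against 3.91% of all genes. Their median log2 difference was 0.98. Gria3, an AMPA receptor subunit, read 405, 285, 394 and 429 in cortex, against 165, 212, 208 and 205 in 15.5 dpc brain, and rose by 0.78 ± 0.160 (limma adjusted p = 0.0309). Grik2, a kainate receptor subunit, read 294, 351, 215 and 341 in cortex, against 171, 174, 119 and 76.1 in 15.5 dpc brain, and rose by 0.93 ± 0.193 (limma adjusted p = 0.0316). In both genes the groups were apart. Gria2, the subunit that keeps calcium out of AMPA receptors, read 6385, 2309, 11151 and 2408 in cortex, against 888, 1187, 1083 and 802 in 15.5 dpc brain. Replicate 1 arrays of cortex read far higher than replicate 2 arrays, and the difference of 2.13 ± 0.692 did not pass (limma adjusted p = 0.0981).

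Of 25 synaptic vesicle and release genes 5 were called higher (20%, against 1.7% of all genes) and 0 lower, with a median of 0.58. With each replicate alone 9 passed (36%, against 3.91% of all genes). Syt5, a vesicle protein of the synaptotagmin family, read 704, 797, 651 and 807 in cortex, against 468, 402, 465 and 372 in 15.5 dpc brain. All cortex values were higher, and Syt5 rose by 0.73 ± 0.148 (limma adjusted p = 0.0301). Syn2, a synapsin that tethers vesicles, read 1600, 869, 1553 and 1118 in cortex, against 433, 537, 496 and 449 in 15.5 dpc brain, and rose by 1.30 ± 0.275 (limma adjusted p = 0.0336), by 1.62 with replicate 1 alone and 0.97 with replicate 2 alone. Pclo, a scaffold of the active zone, Unc13a, which primes vesicles, and Syt1, the calcium sensor of fast release, differed by 1.22, 1.16 and 0.93. Syp and Snap25, among the best known members, differed by 0.28 and 0.53 and did not pass (limma adjusted p = 0.773 and 0.279).

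Channel genes had 6 calls higher (24%, against 1.7% of all genes) and 0 lower among 25, with a median of 0.65. This list does not hold Kcne2, the channel subunit called lower among the choroid plexus genes. Kcnk1, a leak potassium channel, read 652, 651, 604 and 610 in cortex, against 374, 345, 384 and 264 in 15.5 dpc brain, with little spread in cortex. It rose by 0.80 ± 0.139 (limma adjusted p = 0.0207). Kcnma1, the large-conductance potassium channel opened by calcium, read 2021, 735, 2825 and 880 in cortex, against 302, 202, 319 and 329 in 15.5 dpc brain. Both replicate 1 values exceeded both replicate 2 values, and the rise of 2.11 ± 0.505 (limma adjusted p = 0.0467) was 2.86 with replicate 1 alone and 1.35 with replicate 2 alone. Kcna6, Cacna2d1, Cacna1c and Kcnj10 differed by 1.07, 0.99, 0.75 and 0.72. Scn2a, the sodium channel of young axons, read 2909, 844, 4664 and 1332 in cortex, against 235, 153, 323 and 272 in 15.5 dpc brain, apart but not called (2.81 ± 0.760, limma adjusted p = 0.063). A second Scn2a probe set was called, at 1.51 ± 0.288 (limma adjusted p = 0.0267).

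Calcium signalling genes also had 6 calls higher (24%, against 1.7% of all genes) and 0 lower among 25, with a median of 0.84. With each replicate alone 10 passed (40%, against 3.91% of all genes). Atp2b2, a pump that exports calcium from neurons, read 815, 992, 1177 and 1363 in cortex, against 323, 618, 385 and 369 in 15.5 dpc brain, and rose by 1.27 ± 0.194 (limma adjusted p = 0.0149). Caln1, a calmodulin-like protein of neurons, read 2968, 1282, 4381 and 1541 in cortex, against 201, 646, 324 and 351 in 15.5 dpc brain, and rose by 2.51 ± 0.598 (limma adjusted p = 0.046). Its replicate 1 values were again above its replicate 2 values. The kinases Camk2d and Camk1d, the phospholipase Plcb1 and the calcineurin subunit Ppp3ca differed by 1.22, 1.28, 0.69 and 0.90. Of 11 genes for GABA and glycine receptors and chloride transport 2 were called higher (18.2%, against 1.7% of all genes). These were the GABA receptor subunits Gabrb1 (1.03) and Gabra2 (0.91). Slc12a5, the chloride exporter KCC2, read 1863, 2751, 2304 and 3273 in cortex, against 910, 2359, 1114 and 1012 in 15.5 dpc brain, overlapping through MatDp7 replicate 2, and did not pass (0.97 ± 0.285, limma adjusted p = 0.0771).

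Axon growth and guidance genes had 3 calls higher among 41 (7.32%, against 1.7% of all genes). Cntn1, the adhesion molecule contactin, read 9946, 3508, 15844 and 4638 in cortex, against 1396, 659, 1308 and 958 in 15.5 dpc brain. The groups were apart, replicate 1 values were the higher ones in cortex, and Cntn1 rose by 2.72 ± 0.619 (limma adjusted p = 0.0399). Chl1, an L1-like adhesion molecule, and Sema3c, a secreted guidance cue, differed by 1.05 and 0.93. Plppr4, a protein of neuronal membranes related to lipid phosphatases, read 1144, 1284, 2475 and 1661 in cortex, against 535, 305, 518 and 320 in 15.5 dpc brain, and rose by 1.82 ± 0.236 (limma adjusted p = 0.00985), with similar sizes of 1.92 and 1.72 in the replicates. Thy1, a surface protein of projection neurons, read 686, 1031, 634 and 1265 in cortex, against 218, 323, 359 and 254 in 15.5 dpc brain, a rise of 1.46 ± 0.312 (limma adjusted p = 0.0345).

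Klf9, a transcription factor gene induced by thyroid hormone and glucocorticoids, had the largest difference of those higher. It read 2278, 680, 1183 and 684 in cortex, against 197, 17.6, 241 and 30.6 in 15.5 dpc brain. Replicate 1 values were the higher ones on both sides, and the rise of 2.96 ± 0.614 (limma adjusted p = 0.0316) was seen in all 3 of its probe sets, at 1.66 to 2.96. Fos and Egr1, immediate early genes that follow neuronal activity, were the 2 called among 13 of their kind (15.4%, against 1.7% of all genes called higher). Fos read 765, 294, 402 and 280 in cortex, against 96.3, 90.2, 87.1 and 96.0 in 15.5 dpc brain, a rise of 1.65 ± 0.315 (limma adjusted p = 0.0267). Egr1 read 714, 606, 621 and 789 in cortex, against 173, 264, 235 and 282 in 15.5 dpc brain, a rise of 1.35 ± 0.243 (limma adjusted p = 0.023).

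Further genes of large size lay outside those pathways. Crim1, a membrane protein that binds BMPs and marks some deep layer neurons, read 1176, 534, 451 and 429 in cortex, against 109, 16.6, 318 and 115 in 15.5 dpc brain, a rise of 1.998 ± 0.405 (limma adjusted p = 0.0295). Hivep3, a zinc finger factor, Entpd2, an ectoenzyme that degrades ATP, and Dock9, an activator of Cdc42, rose by 1.66, 1.65 and 1.51. Among those lower, Immp1l, a peptidase subunit of the inner mitochondrial membrane, read 199, 501, 377 and 325 in cortex, against 2826, 1326, 1497 and 1691 in 15.5 dpc brain, and fell by 2.22 ± 0.324 (limma adjusted p = 0.0145). Smpd2, a neutral sphingomyelinase, read 74.4, 85.2, 70.5 and 97.6 in cortex, against 443, 450, 641 and 393 in 15.5 dpc brain, and fell by 1.98 ± 0.365 (limma adjusted p = 0.0239). Apool, a protein of mitochondrial cristae, had a cortex mean under the added constant (51.5 ± 46.5, SD, n = 4) and differed by -1.85. Of 40 oxidative phosphorylation genes 3 were called lower (7.5%, against 3.95% of all genes), Sdhd (-1.15), Atp5h (-0.82) and Ndufa5 (-0.66), and the list median was -0.37 (-0.60 with replicate 1 alone, -0.16 with replicate 2 alone).

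**Figure D3:**
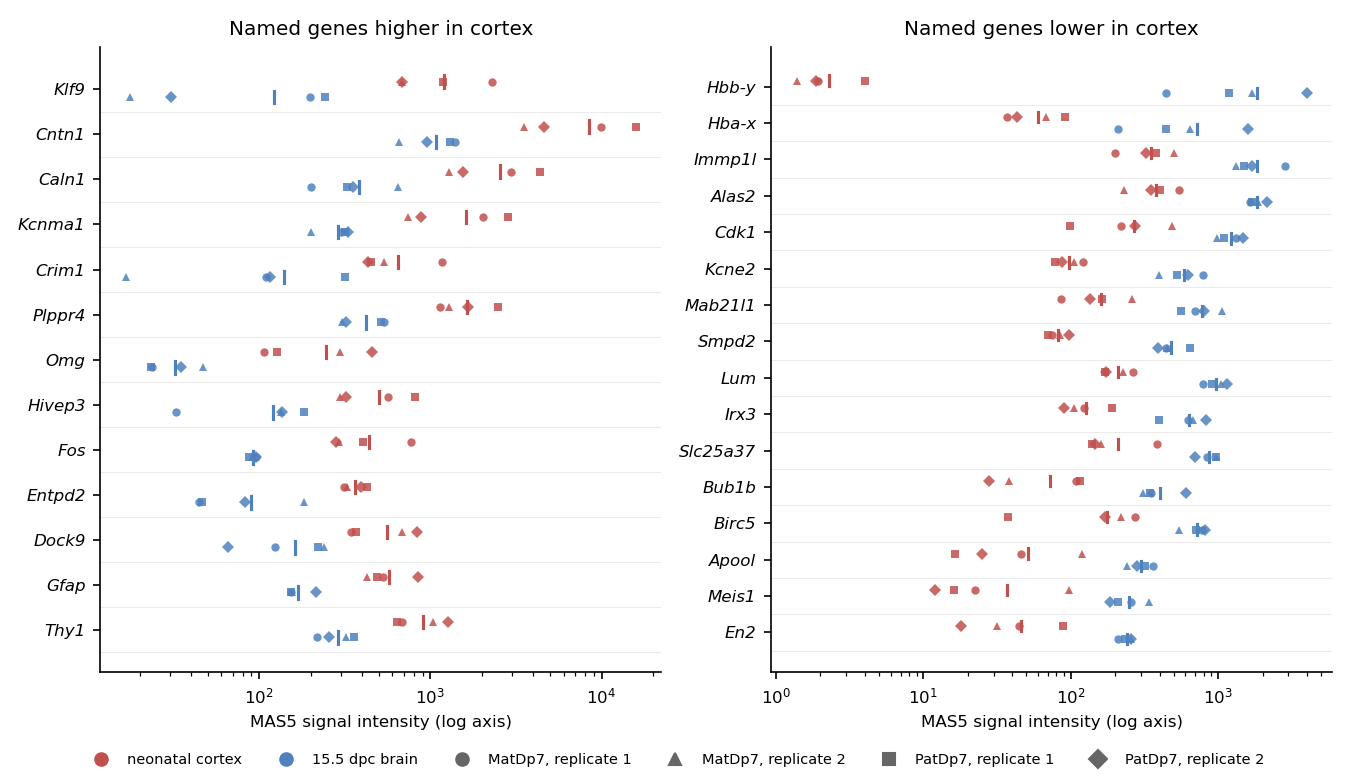
MAS5 signal intensity (log axis) of the genes with the largest differences on each of the 4 arrays of neonatal cortex (red, upper row of each gene) and the 4 arrays of 15.5 dpc brain (blue, lower row). Bars are means, shapes give the duplication and replicate, and red and blue points do not overlap for any gene shown, which the choice of these genes required.

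Of 28 astrocyte genes 3 were called higher (10.7%, against 1.7% of all genes) and 0 lower, with a median of 0.28, and 8 passed higher with each replicate alone, against 3.91% of all genes. Gfap, the intermediate filament of astrocytes, read 531, 426, 487 and 850 in cortex, against 154, 155, 153 and 215 in 15.5 dpc brain. All cortex arrays were higher, and Gfap rose by 1.46 ± 0.275 (limma adjusted p = 0.026). The bicarbonate carrier Slc4a4 and the sodium pump subunit Atp1b2 differed by 0.71 and 0.73. Aqp4, the water channel of astrocyte endfeet, read 849, 355, 1000 and 509 in cortex, against 167, 78.5, 123 and 94.2 in 15.5 dpc brain, apart but not called (2.05 ± 0.529, limma adjusted p = 0.056). Another Aqp4 probe set was called, at 1.88 ± 0.239 (limma adjusted p = 0.00985). Summed intensity of the astrocyte list was 52565 to 59572 in cortex and 41009 to 46221 in 15.5 dpc brain. Omg, the oligodendrocyte myelin glycoprotein, which neurons also make, was the only call among 14 oligodendrocyte lineage genes (7.14%, against 1.7% of all genes). It read 107, 296, 127 and 453 in cortex, against 23.7, 46.6, 23.2 and 35.0 in 15.5 dpc brain, and its size of 1.67 ± 0.355 (limma adjusted p = 0.0337) depends on the added constant.

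Of cortical identity genes, Mef2c, a transcription factor gene of cortical neurons listed with the upper layers, read 3506, 3709, 3059 and 5089 in cortex, against 1279, 1221, 1840 and 1249 in 15.5 dpc brain. Every cortex array was higher, and Mef2c rose by 1.42 ± 0.223 (limma adjusted p = 0.0166), with 5 probe sets at 1.42 to 2.56. It was the 1 call among 12 upper layer genes (8.33%, median 0.61), while the 15 deep layer and subplate genes (median 0.76) had 2 called higher (13.3%), against 1.7% of all genes: Crim1 and Ntsr1 (1.03), the neurotensin receptor of layer VI. Ptprk and Zbtb18, genes of cortical excitatory neurons, differed by 0.93 and 0.64. Of 18 interneuron and striatal genes 3 were called higher (16.7%, against 1.7% of all genes). They were Gad2, a GABA-synthesising enzyme (0.96), Drd2, a dopamine receptor (0.73), and Rarb, a retinoic acid receptor of striatal neurons (0.65). Neurod6 did not pass, at 1203, 1396, 1183 and 1669 in cortex, against 1965, 826, 1375 and 1084 in 15.5 dpc brain (0.11 ± 0.265, limma adjusted p = 0.809).

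To see which of these differences were particular to cortex, the difference between cortex and neonatal cerebellum was tested in the same fit, where the shared 15.5 dpc arrays cancel. It passed for 50 probe sets (0.368%) and 32 of 8156 genes (0.392%), and 15 of the 461 called genes were among them (3.25%). The same cortex arrays enter this contrast and the calls, which raises the share among called genes beforehand. The larger share is therefore no separate support. Deviations of same-numbered cortex and cerebellum arrays from their group means correlated at 0.710 to 0.775, which this fit did not use. With a replicate block of the neonatal arrays 465 probe sets passed, and 50 called genes in place of 15. Of those 15, 8 were lower in cortex than in cerebellum. Meis1 averaged 37.1 in cortex, against 422 in cerebellum and 247 in 15.5 dpc brain, with a cortex minus cerebellum difference of -2.46 ± 0.273 (limma adjusted p = 0.00492). Mab21l1 averaged 161 in cortex, against 1329 in cerebellum and 781 at 15.5 dpc (-2.75 ± 0.263, limma adjusted p = 0.00296). Irx2, Irx3, Tal1, En2, Barhl1 and Foxa1 completed that set, all members of the midbrain, hindbrain and spinal list, and all 8 calls of that list passed.

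Higher in cortex than in cerebellum were 7 of the 15. Mef2c averaged 3841 in cortex, against 363 in cerebellum and 1397 in 15.5 dpc brain, with the largest cortex minus cerebellum difference, 3.23 ± 0.223 (limma adjusted p = 0.000435). Gucy1a1, a subunit of the nitric oxide receptor, averaged 999 in cortex, against 372 in cerebellum and 338 at 15.5 dpc (1.31 ± 0.169, limma adjusted p = 0.012), and Myo5b, a myosin motor, differed likewise by 1.03. Zbtb18 and Rarb differed by 1.75 and 1.37, and both were also lower in cerebellum than in 15.5 dpc brain. Zbtb18 averaged 4584 in cortex, 1334 in cerebellum and 2945 at 15.5 dpc, and Rarb 677, 233 and 417. Against 15.5 dpc brain, Zbtb18 differed by 0.64 in cortex and -1.10 in cerebellum, and Rarb by 0.65 and -0.72. Igfbpl1 and Cdca7 were lower in cortex than in 15.5 dpc brain but higher in cortex than in cerebellum, by 1.35 and 1.40. Without a replicate block, none of the replication or mitosis genes named above passed between cortex and cerebellum. Mcm3 differed by -0.26 (limma adjusted p = 0.82) and Cdk1 by -0.36 (limma adjusted p = 0.932), which does not show that they were equal.

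At 13.5 dpc, with 1 array per duplication and no test, Hbb-y, Hba-x, Mcm3, Cdk1 and Mest lay above all of their 15.5 dpc values. Hbb-y read 12207 and 11701, Hba-x 17328 and 12673, Mcm3 1112 and 1312, Cdk1 2053 and 2336 and Mest 6910 and 7514. Kcne2 read 137 and 152 at 13.5 dpc, below its 15.5 dpc values of 396 to 795 and near its cortex values of 78.2 to 121. Plppr4 read 172 and 117 at 13.5 dpc, 305 to 535 at 15.5 dpc and 1144 to 2475 in neonatal cortex, which is also another brain part. The choice of this gene required that its cortex and 15.5 dpc values not overlap.

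**Figure D4:**
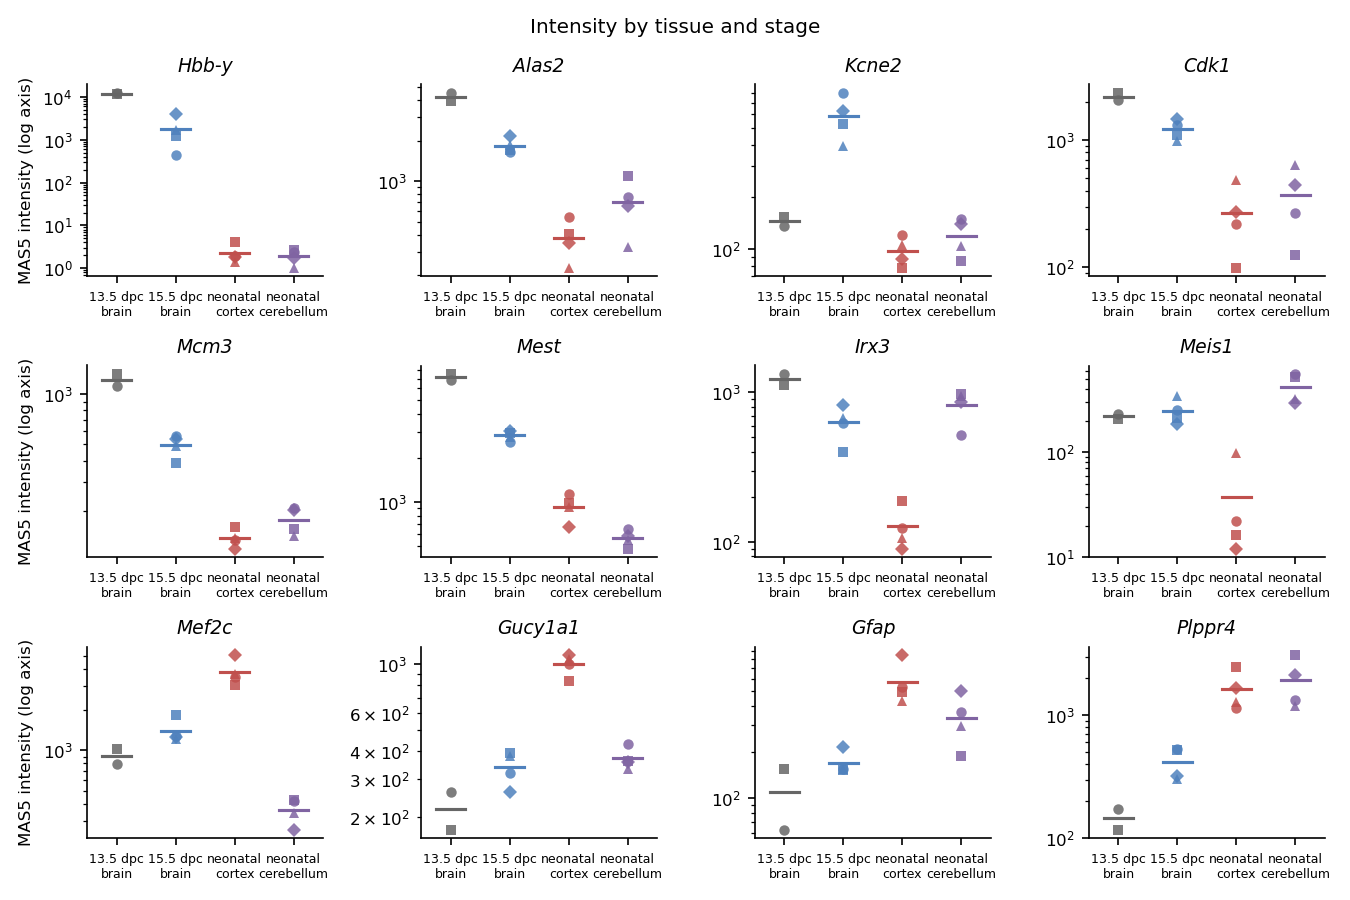
MAS5 signal intensity (log axis, a range of its own for each gene) of 12 genes by array in 13.5 dpc brain (n = 2), 15.5 dpc brain, neonatal cortex and neonatal cerebellum (n = 4 each). Circles are MatDp7 replicate 1, triangles MatDp7 replicate 2, squares PatDp7 replicate 1 and diamonds PatDp7 replicate 2, bars are means, and Irx3 and Meis1 are low in cortex alone while Mcm3 and Cdk1 are low in both neonatal tissues.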

How the data were processed

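RNA of 14 samples was hybridised to Affymetrix GeneChip 430A arrays, from 9 µg of total RNA each per the labels' protocols. The authors deposited signal intensity on a linear scale. The tool was MAS5, per the submitters' processing notes, and its version is not given in the sources used here. The 2% trimmed mean was about 500.1 on every array, so the deposited intensity was used as it stands. Probe names came from GEO's platform annotation: of 22626 probe sets that are not controls, 20380 had 1 gene, 691 several and 1555 none. Symbols of 20351 were brought up to date through a RefSeq table.

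Deposited intensity was changed here to log2 with an added constant of 52.0, which is the 20th percentile of the whole table. Probe sets whose log2 values averaged below the 40th percentile were left out, leaving 13576 to test. A fit with limma 3.58.1 in R 4.3.3 had 8 group means and an intensity trend (6 residual, 3.15 prior degrees of freedom), and p-values were adjusted with Benjamini-Hochberg over all probe sets tested. The single arrays per group at 13.5 dpc do not enter the estimate of spread. A gene is represented by its probe set of highest mean log2. Summed intensities of a list take in all its genes on the array, also those the filter left out, while counts and medians cover tested genes only. Errors of log2 differences are standard errors and those of intensities are SD.

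Of called genes whose arrays do not overlap, the text names the 12 of largest difference in each direction, up to 5 more in each direction with a tissue mean under the constant, up to 5 members of each list with the smallest p plus members that account for the list, and up to 8 genes in each direction that pass for cortex against cerebellum. The comparison and the 39 gene lists were chosen with earlier results of these data known. On simulated data for this comparison, with 50 changed probe sets per size among 13576, the share recovered was 4% for a log2 size of 0.5, 30% for 1, 96% for 2 and 98% for 4, and 6 of 120 calls were false. The simulated noise was independent between arrays, and calls used the adjusted p alone, without the rule on sign. The real neonatal arrays share deviations by replicate number, so these shares need not hold for the 764 calls. Alternatives were the constant, the filter, scaling, the arrays fitted, the variance trend, array weights, a replicate block and leaving out each of 8 arrays. Promoter windows came from RefSeq (GRCm38.p6). Detection calls and other files were not used here.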

Additional observations from a re-analysis of the deposited data

Results flagged for a closer look

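Among 80 sets of 4 arrays (each named gene in each tissue) 4 held 1 array far from the other 3 by Dixon's criterion, where chance gives about 5%. Gfap read 215 in 15.5 dpc PatDp7 replicate 2, above 153 to 155 on the other arrays of that tissue. Slc25a37 read 386 in cortex MatDp7 replicate 1, above 140 to 160 on the others. In 15.5 dpc PatDp7 replicate 1 Mef2c read 1840, above 1221 to 1279 on the others, and Tal1 read 351, below 642 to 666.

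The cortex minus cerebellum log2 difference, which is the difference between the 2 neonatal tissues' comparisons with 15.5 dpc brain, passed for 15 called genes. It was negative for Mab21l1 (-2.75), Meis1 (-2.46), Irx2 (-2.36), Irx3 (-2.28), Tal1 (-2.11), En2 (-2.11), Barhl1 (-1.75) and Foxa1 (-1.19), with limma adjusted p from 0.00296 to 0.032. It was positive for Mef2c (3.23), Zbtb18 (1.75), Cdca7 (1.40), Rarb (1.37), Igfbpl1 (1.35), Gucy1a1 (1.31) and Myo5b (1.03), with limma adjusted p from 0.000435 to 0.032. Igfbpl1 and Rarb missed the threshold in the comparison with 15.5 dpc brain when cortex replicate 2 was taken alone (limma adjusted p = 0.063 and 0.0552). Another probe set of Igfbpl1 differed by -0.05 between cortex and 15.5 dpc brain.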

How the results depend on the processing

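Of 764 called probe sets, 254 were higher and 510 lower in cortex, and 111 listed genes were called. The labels do not pair samples by replicate number. Deviations of same-numbered arrays correlated at 0.756 between the cortex groups, and at 0.264, -0.0799, 0.236 and -0.0922 between cortex and 15.5 dpc groups. Between cortex and cerebellum groups they correlated at 0.710 to 0.775. A replicate block fitted to the neonatal arrays called 4807 probe sets (2235 higher, 2572 lower), all 764 among them, and 381 listed genes. That replicate block gave 1793 in MatDp7, 3417 in PatDp7, 465 for cortex against cerebellum (50 without it) and 50 in place of 15 called genes that also passed there. With a replicate block of all numbered arrays 2640 were called (1185 higher, 1455 lower) and 258 listed genes. Additive terms for tissue and duplication gave 1984 (712 higher, 1272 lower) and 205 listed genes. With the same additive terms, replicate 1 alone gave 6101 (2888 higher, 3213 lower) and 384, and replicate 2 alone 2589 (1194 higher, 1395 lower) and 293.

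Leaving out 1 array gave 0 to 1076 calls, with 0 to 347 higher, 0 to 729 lower and 0 to 119 listed genes. Scaling to equal medians gave 125 higher. Under the other constants, filters, quantile scaling, the 8 arrays alone, no trend and array weights counts ran from 602 to 941. The causes were not tested. Among 107 called genes followed, none changed sign in a fit, which their choice as called genes made likely beforehand. Of these, 104 lost their call without 15.5 dpc MatDp7 replicate 1, all 107 without 15.5 dpc PatDp7 replicate 2, 24 without the filter, 17 with the 8 arrays alone and 15 with median scaling. With the median over the probe sets of each gene Ccnd1 changed sign, at 0.0036 against -0.60, and 8 others moved and kept their sign: Hbb-y (-4.70), Mef2c (2.20), Igfbpl1 (-0.38), Mcm3 (-1.35), Smc4 (-0.57), Ss18 (-0.96), Slc4a4 (0.53) and Grb10 (-0.85). With 4 arrays a side, changes under about 1 on the log2 scale were often not detectable.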

Other observations

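Further lists are given beside the shares of all genes called, 1.7% higher and 3.95% lower. Of 22 genes of the neuronal chromatin and splicing switch 2 were called, both lower in cortex (9.09%): Ss18 (-0.73), a subunit of the progenitor form of the BAF complex, and Ptbp1 (-0.84), a splicing repressor of progenitors. Ptbp1 read 1351, 1336, 936 and 1465 in cortex, against 2131, 2195, 2020 and 2917 in 15.5 dpc brain (limma adjusted p = 0.0358). Ribosome biogenesis and RNA processing genes had 2 calls lower among 27 (7.41%), Snrpa1 (-0.74) and Srsf3 (-0.73), and another Srsf3 probe set differed by 0.10. Of 27 cholesterol and lipid genes Scd1, a fatty acid desaturase, was called higher: it read 1793, 1223, 1040 and 1056 in cortex, against 569, 554, 650 and 444 in 15.5 dpc brain (1.11 ± 0.198, limma adjusted p = 0.0229). Klf9 was the 1 call among 20 glucocorticoid and thyroid hormone genes, of which 5 passed higher with each replicate alone (25%, against 3.91% of all genes). Excitatory neuron genes had 2 calls higher among 13 (15.4%), Ptprk and Zbtb18.

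By limma, 0 members were called among 23 ribosomal protein, 25 glycolysis and hypoxia, 11 interferon and antigen presentation, 18 diencephalic and hypothalamic, 9 monoaminergic and cholinergic, 10 stress and RNA quality and 3 X-inactivation and Y-linked genes. At an unadjusted p under 0.05 these lists held 2, 5, 1, 4, 1, 4 and 0 genes in the same order. Summed intensity of the stress and RNA quality list was 24678 to 31418 in cortex and 28148 to 34419 in 15.5 dpc brain. Cck, a neuropeptide gene (1.32 ± 0.309, limma adjusted p = 0.0445), and Cnr1, the cannabinoid receptor gene of many neurons that make it (1.07 ± 0.211, limma adjusted p = 0.0277), were called higher and were singled out after their values were seen.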
